A study of Arabidopsis thaliana with 12 samples.

Results

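Transcripts of 4 tetrapyrrole synthesis genes were followed in wild-type Arabidopsis thaliana (Columbia-0 ecotype): HEMA3 (AT2G31250) at the entry to the pathway, CHLM (AT4G25080) and the geranylgeranyl reductase gene AT1G74470 on the chlorophyll branch, and SIRB (AT1G50170) at the end of the siroheme branch. They were taken by name, each from the probe that the platform annotation assigns to that gene alone, and are 4 of the 691 genes with such a probe on an array of 3439 probes. Plants of 1 group (6 arrays) received 2 µM staurosporine for 4 h, followed by a 4 h treatment with 25 mM ascorbate (pH 5.5). Plants of the other group (6 arrays) received water for 4 h in place of staurosporine and then the same ascorbate treatment. Both groups thus carry the ascorbate treatment, and neither the tissue nor the age of the plants is given in the sources used here.

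Plants make their tetrapyrroles largely in the plastid from glutamate, by way of aminolevulinate, and the pathway is controlled mainly at its entry, where glutamyl-tRNA reductase acts. At uroporphyrinogen III the siroheme branch leaves the trunk, and at protoporphyrin IX the chlorophyll branch starts with the insertion of magnesium, while iron gives heme. Siroheme is the prosthetic group of plastid nitrite and sulfite reductases, and free chlorophyll intermediates are strong photosensitizers, which is why supply and use are kept in balance. Staurosporine blocks a wide range of protein kinases, and ascorbate is a major reductant of the chloroplast.

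Of the 4 genes, SIRB rose after staurosporine and the other 3 did not pass the test. SIRB was 2.30-fold higher (95% interval 1.53 to 3.46), with no overlap between the groups. CHLM and AT1G74470 also had higher group means after staurosporine, by log2 changes of 0.68 ± 0.25 and 0.36 ± 0.13 (SE), whereas the mean of HEMA3 was lower, with a change of -0.67 ± 0.28. A change is log2 of staurosporine over water from limma, fitted to 12 arrays and all 3439 probes, with Benjamini-Hochberg adjustment over all probes and a threshold of 0.05. It is fitted to log values, so it can differ from the ratio of the linear means. The share of called genes, 1 of 4, is close to the background, since 22.9% of all probes passed in either direction and 11.1% passed as higher. The median change of the 4 genes was 0.52 and that of all probes -0.12. With arrays of a number pair averaged, as explained next, none of the 4 passed, against 0.262% of all probes.

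The array values are relative intensities without an absolute unit, so the level of a probe is compared with itself across arrays. Ranks within an array and ratios between genes are given below only to compare the groups, not to say which gene has more transcript. The labels do not name separate plants or cultures for the arrays of a group, and p-values therefore cover array-to-array spread that could be technical. Arrays 1 and 2, 3 and 4, and 5 and 6 of a group, called number pairs here, were more alike on average (Spearman correlations of 0.889 to 0.987) than arrays of different pairs (0.825 to 0.917). The values of each gene are therefore given by number pair, and the fit to 3 averaged pairs per group stands beside that to 12 arrays. Of the called probes 48.4% were higher after quantile normalization, 60.6% without further normalization, 34.4% with arrays centred on their medians and 66.0% with arrays scaled to equal means. The median change of all probes under these was -0.12, 0.19, -0.10 and 0.25, in the same order. In these samples a lower share of green cells and less transcript per cell cannot be told apart. Of 6 leaf markers, PSAN and LHB1B2 had a probe of their own. Both were above 0 on all 12 arrays and passed as lower after staurosporine, with log2 changes of -1.73 and -0.65. So did 11.8% of all probes, and 78 of the 692 single-gene probes. Neither of the 2 markers passed with number pairs averaged. Another marker, RCA (the activase of Rubisco), shared both of its probes with AT1G73110. Probe 665 had means of 1.49 ± 0.120 after staurosporine and 1.43 ± 0.273 after water (SD, n = 6), and its log2 change of 0.08 ± 0.15 did not pass (limma adjusted p 0.737). Probe 1872 was listed at 0 on 5 of 6 arrays in each group and is given no fold. The part this plays in the results below was not tested. None of 5 root markers had a probe of its own.

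**Figure D1:**
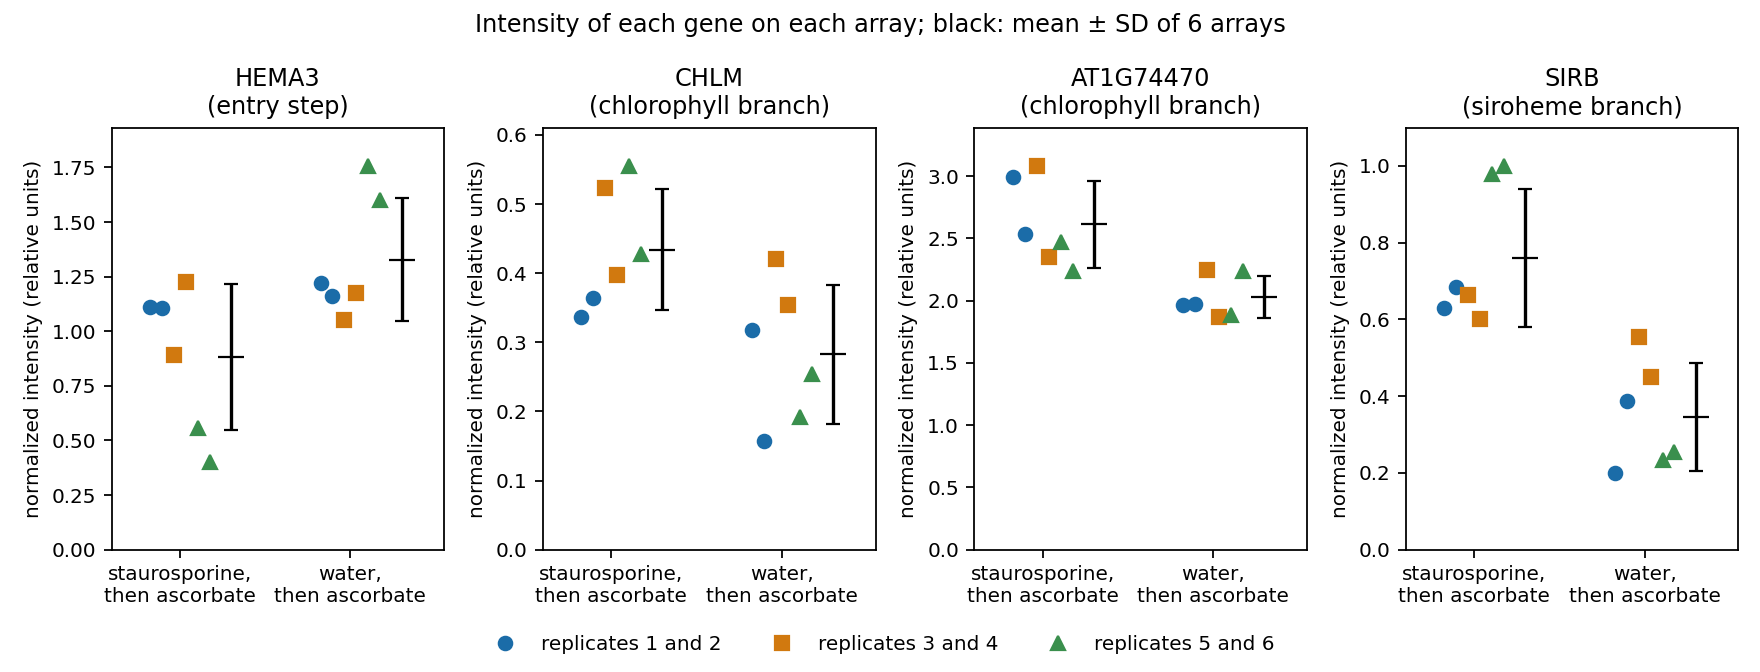
Normalized intensity (relative units, linear axis from 0) of the 4 genes on each array, staurosporine left and water right, with the mean ± SD of 6 arrays in black and symbols for the number pairs. The groups are apart for SIRB and overlap for HEMA3, CHLM and AT1G74470, and the lowest HEMA3 values are those of staurosporine replicates 5 and 6.

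HEMA3 encodes a glutamyl-tRNA reductase, a lesser-known relative of the light-regulated HEMA1, and stands at the entry step. Its normalized intensity in the number pairs averaged 1.11, 1.06 and 0.480 after staurosporine, against 1.19, 1.11 and 1.68 after water. Single arrays ran from 0.403 through a median of 0.997 to 1.23 after staurosporine and from 1.05 through 1.20 to 1.76 after water. The means of replicates 1 and 2 and of 3 and 4 lay close together in both groups, and the difference sat mostly in replicates 5 and 6. There staurosporine arrays were the lowest of their group and water arrays the highest of theirs. Staurosporine replicate 3, at 0.890, also lay below all water arrays, while staurosporine replicate 4 was at 1.23. In the deposited values, staurosporine replicates 5 and 6 had the highest array medians (0.486 and 0.483) and the lowest maxima (69.0 and 65.9) of all arrays. The part this plays was not tested. The log2 changes of the 3 number pairs were -0.10, -0.09 and -1.82. Over 12 arrays HEMA3 had means of 0.882 ± 0.334 after staurosporine and 1.33 ± 0.282 after water (SD, n = 6), and the limma adjusted p of its change of -0.67 ± 0.28 was 0.110. Without replicates 5 and 6 of both groups the change was -0.10 (adjusted p 0.721). With number pairs averaged the 95% interval ran from -1.66 to 0.31 (limma adjusted p 0.430). With arrays centred on their medians HEMA3 passed, with -0.91 on the log2 scale (adjusted p 0.0445). Within its array HEMA3 ranked at percentile 83.0 (median, range 51.3 to 87.8) after staurosporine and 87.3 (84.6 to 92.8) after water, read from the deposited values, so that multiplying an array by 1 factor cannot move it.

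CHLM, which methylates magnesium protoporphyrin IX just after magnesium is inserted, is the earlier of the chlorophyll branch genes. Its number pairs averaged 0.350, 0.460 and 0.492 after staurosporine, against 0.238, 0.387 and 0.223 after water. Single arrays ran from 0.336 through a median of 0.413 to 0.555 after staurosporine and from 0.157 through 0.286 to 0.420 after water. The staurosporine mean was the higher in each number pair, and 3 staurosporine arrays lay above all water arrays, while water replicates 3 and 4 reached into the staurosporine range. The log2 changes of the 3 number pairs were 0.65, 0.24 and 1.14. Over 12 arrays the means were 0.434 ± 0.0877 after staurosporine and 0.283 ± 0.100 after water (SD, n = 6), and the change of 0.68 ± 0.25 did not pass (limma adjusted p 0.0707). The adjusted p was 0.318 with number pairs averaged, with a 95% interval of -0.10 to 1.45. CHLM passed without water replicate 3, with 0.81 on the log2 scale (adjusted p 0.0375), with array weights (0.0208) and among the 2584 probes above 0 on all arrays (0.0437). Within its array CHLM ranked at percentile 52.2 (median, range 44.9 to 64.0) after staurosporine and 39.3 (24.7 to 52.9) after water.

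AT1G74470 encodes the geranylgeranyl reductase that saturates the geranylgeranyl chain to the phytyl tail of chlorophyll and of tocopherols, and so acts late on the chlorophyll branch. Its number pairs averaged 2.76, 2.72 and 2.35 after staurosporine, against 1.97, 2.06 and 2.06 after water. Single arrays ran from 2.24 through a median of 2.50 to 3.08 after staurosporine and from 1.87 through 1.97 to 2.25 after water. The normalized water arrays were closely alike, and 5 of the 6 staurosporine arrays lay above all of them. In the deposited values staurosporine replicates 1, 2 and 3 (3.44, 2.90 and 2.88) lay above the highest water array (2.37). Staurosporine replicates 4, 5 and 6 (2.13, 1.95 and 1.89) lay below that array. The log2 changes of the 3 number pairs were 0.48, 0.39 and 0.20. Over 12 arrays the means were 2.61 ± 0.346 after staurosporine and 2.03 ± 0.169 after water (SD, n = 6), and the change of 0.36 ± 0.13 did not pass (limma adjusted p 0.0684). The adjusted p was 0.428 with number pairs averaged, with a 95% interval of -0.17 to 0.88. The direction turned with the scaling, to a log2 change of -0.05 with arrays centred on their medians, and the gene passed with cyclic loess at 0.42 (adjusted p 0.0161). Relative to the median change of all probes, AT1G74470 stood at 0.48 after quantile normalization, 0.43 after cyclic loess and 0.05 without further normalization or with arrays centred on their medians. Within its array it ranked at percentile 95.4 (median, range 94.8 to 96.3) after staurosporine and 93.9 (93.4 to 94.8) after water.

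SIRB encodes the sirohydrochlorin ferrochelatase, which inserts iron in the last step of siroheme synthesis. Its number pairs averaged 0.658, 0.632 and 0.990 after staurosporine, against 0.293, 0.502 and 0.244 after water. Single arrays ran from 0.600 through a median of 0.675 to 0.9996 after staurosporine and from 0.199 through 0.320 to 0.555 after water. All 6 staurosporine arrays lay above all 6 water arrays, which 6.86% of all probes did in this direction, and the gap was narrowest between staurosporine replicate 4 and water replicate 3. In the deposited values, before any normalization, the lowest staurosporine array was at 0.558 and the highest water array at 0.556. Over 12 arrays the means were 0.760 ± 0.180 after staurosporine and 0.346 ± 0.140 after water (SD, n = 6), and the fitted log2 change was 1.20 ± 0.27 (limma adjusted p 0.00779). The log2 changes of the 3 number pairs were 1.25, 0.34 and 2.02.

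The call of SIRB rests on taking the 12 arrays as separate samples. With number pairs averaged its limma adjusted p was 0.165, with a 95% interval of 0.31 to 2.10 for the log2 change, and the unadjusted p was 0.0163. SIRB passed without any 1 array, at adjusted p between 0.00443 and 0.0208, but not without replicates 1 and 2 of both groups (log2 change 1.12, adjusted p 0.0575) or without replicates 5 and 6 (0.86, adjusted p 0.163). Its log2 change lay between 1.13 and 1.47 under 5 other scalings of the arrays, and it passed under each of them. Within its array SIRB ranked at percentile 71.4 (median, range 67.0 to 83.4) after staurosporine and 42.8 (29.4 to 64.0) after water.

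**Figure D2:**
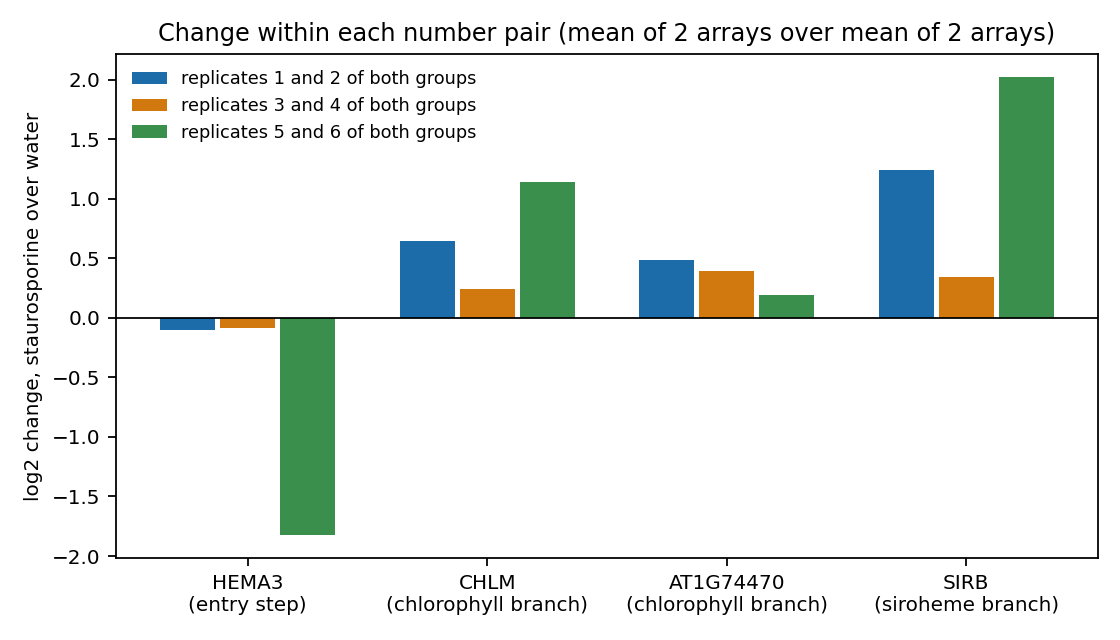
Log2 change of staurosporine over water (mean log2 of 2 arrays minus mean log2 of 2 arrays) within each number pair, after quantile normalization. The bars of each gene point 1 way, and the change of HEMA3 is -1.82 in replicates 5 and 6 but -0.10 and -0.09 in the others.

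The genes did not share 1 pattern over the number pairs. After quantile normalization all 4 kept their direction in the 3 pairs, as did 44.6% of all probes. In the deposited values 2 of them did not. HEMA3 was higher after staurosporine in replicates 1 and 2, at 1.21 and 1.18 against 1.16 and 1.12 after water. AT1G74470 was lower after staurosporine in replicates 5 and 6, at 1.95 and 1.89 against 2.01 and 2.37 after water. HEMA3, CHLM and SIRB had their widest change in replicates 5 and 6 and their narrowest in replicates 3 and 4, where the log2 change of SIRB was 0.34. Staurosporine replicates 5 and 6 are the arrays with the lowest maxima, as given above for HEMA3. AT1G74470 ran the other way, with its narrowest change in replicates 5 and 6. Among water arrays, replicates 3 and 4 gave the highest pair mean of both CHLM and SIRB, at 0.387 for CHLM and 0.502 for SIRB.

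Ratios between genes within an array were taken from the deposited values and are given as descriptions, for changes only. Multiplying an array by 1 factor leaves them as they are, but quantile normalization moves them. The log2 ratio of SIRB to HEMA3 was higher after staurosporine by 2.03 on average, and by 2.07, 0.48 and 3.56 in the 3 number pairs. That of CHLM to HEMA3 was higher by 1.64 on average, and by 1.62, 0.38 and 2.90 in the pairs. That of AT1G74470 to HEMA3 was higher by 0.86 on average, and by 0.54, 0.54 and 1.49 in the pairs. These 3 ratios were higher in each number pair, also after quantile normalization, and the single arrays of the groups overlapped for all 3. All 3 have HEMA3 as denominator and so contain its change, which makes them no independent results. The ratio of SIRB to CHLM was higher by 0.44, 0.09 and 0.66 in the pairs, while that of SIRB to AT1G74470 changed by 1.52, -0.06 and 2.07. That of AT1G74470 to CHLM changed by -1.08, 0.16 and -1.41. After quantile normalization the change in SIRB to AT1G74470 was 0.76, -0.05 and 1.83 in the pairs.

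Other steps of the pathway could be followed through few probes. The lists held 57 genes: tetrapyrrole synthesis with its heme and bilin branch, chlorophyll breakdown, siroheme-using reductases, phytyl supply and the plastid signal gene GUN1. Of these, the 4 genes above were the only ones with a probe of their own, and 53 had none. In the siroheme branch this left SIRB alone of 2 listed genes, and in the chlorophyll branch CHLM and AT1G74470 of 16. A further 4 probes each carried 2 listed genes for the same step. Among these 4 probes, 1 was called higher, 1 was called lower and 2 were not called, while 22.9% of all probes were called in either direction. Which of the 2 genes gave the signal cannot be read from such a probe.

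On the common trunk, probe 2801 carries both genes of aminolevulinate dehydratase, HEMB1 and HEMB2, the step that joins aminolevulinate molecules into porphobilinogen. Probe 2801 rose after staurosporine, with means of 0.686 ± 0.0769 after staurosporine and 0.324 ± 0.0881 after water (SD, n = 6). All 6 staurosporine arrays lay above all 6 water arrays, as they did for 6.86% of all probes. The limma adjusted p of its log2 change of 1.13 ± 0.21 was 0.00275, and 0.131 with number pairs averaged. The number pairs gave 1.72, 0.99 and 0.68. Probe 2077 carries both genes of uroporphyrinogen decarboxylase, HEME1 and HEME2, which act just past the point where siroheme synthesis leaves the trunk. It had means of 0.349 ± 0.107 after staurosporine and 0.302 ± 0.0585 after water, and a log2 change of 0.16 ± 0.24 (limma adjusted p 0.658), with a 95% interval of -0.38 to 0.69. Its number pairs did not share a direction, with 0.47, 0.20 and -0.20. The change was 0.57 without further normalization, 0.36 without staurosporine replicate 6 and 0.0037 without replicates 1 and 2 of both groups, and it did not pass under any of these.

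On the chlorophyll branch, probes 525 and 613 both carry LIL3:1 and LIL3:2, light-harvesting-like membrane proteins that bind and stabilize geranylgeranyl reductase. Their values are 2 readings of the same gene pair, not independent results. Probe 613 fell after staurosporine, with means of 0.441 ± 0.121 after staurosporine and 0.684 ± 0.109 after water (SD, n = 6), and a fitted log2 change of -0.66 ± 0.19 (limma adjusted p 0.0287). That p was 0.245 with number pairs averaged, 0.150 without further normalization and above 0.05 on leaving out any 1 of 6 arrays (staurosporine replicates 3, 4 and 5 and water replicates 1, 3 and 6), where it ranged from 0.0510 to 0.0640. Probe 525 had means of 0.363 ± 0.111 after staurosporine and 0.4905 ± 0.0849 after water, with a log2 change of -0.47 ± 0.21 (adjusted p 0.138). The reductase gene AT1G74470 itself had its higher mean after staurosporine, at 2.61.

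**Figure D3:**
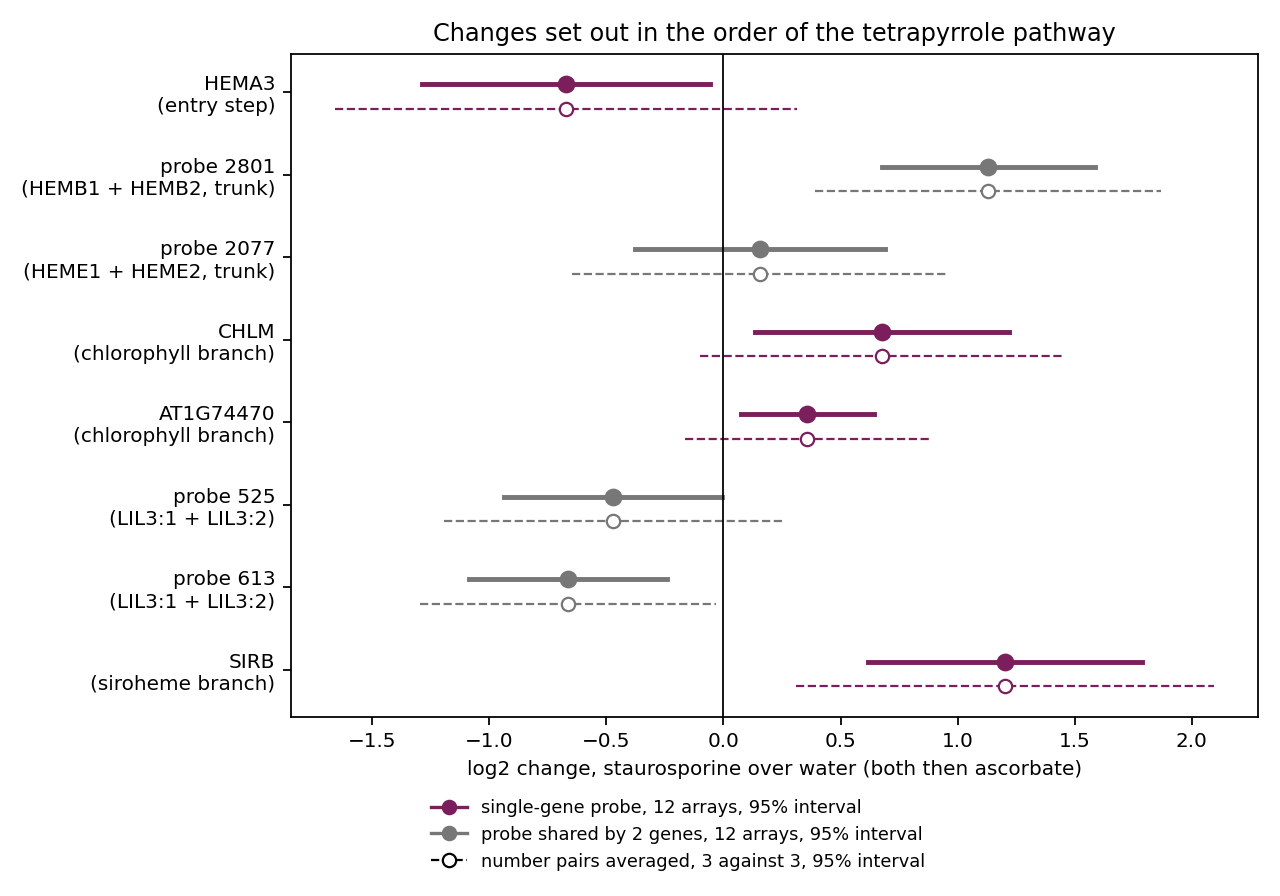
Log2 change of staurosporine over water in pathway order from top to bottom, with 95% intervals from 12 arrays (solid) and from averaged number pairs (dashed), purple for single-gene probes and grey for probes shared by 2 genes. HEMA3 at the top is at -0.67 and SIRB at the bottom at 1.20, and the dashed intervals of HEMA3, CHLM and AT1G74470 include 0.

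Set out in pathway order, the changes were thus -0.67 at the entry step (HEMA3), 1.13 and 0.16 on the trunk (probes 2801 and 2077), 0.68 and 0.36 (CHLM and AT1G74470) and -0.47 and -0.66 (probes 525 and 613) on the chlorophyll branch, and 1.20 on the siroheme branch (SIRB). Of these 8, SIRB and probe 2801 passed as higher and probe 613 as lower over 12 arrays, and none passed with number pairs averaged. Over all probes, 11.1% passed as higher and 11.8% as lower over 12 arrays, and 0.262% passed with number pairs averaged. Probes 525 and 613 read the same gene pair.

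**Figure D4:**
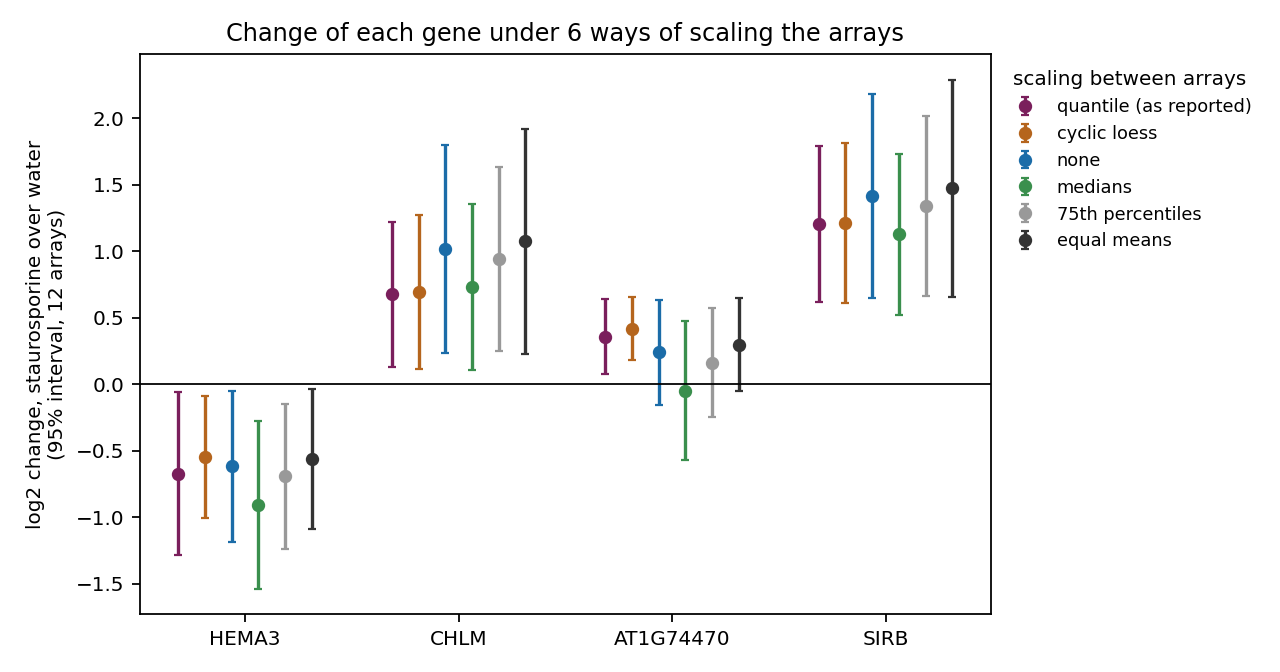
Log2 change of each gene with its 95% interval (12 arrays) under 6 scalings of the arrays. HEMA3 stays below 0 and CHLM and SIRB above 0 in all 6, whereas AT1G74470 lies between -0.05 and 0.42.

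For each gene, the single-gene probes with the most similar profile were sought among 522 that were above 0 on all arrays. Likeness is the root mean square difference of log2 levels over the 12 arrays, each probe centred on its own mean. It includes the difference between the groups and the likeness of number pairs. The choice thus favours probes that share the gene's change, so their calls are no independent results. Nearest to HEMA3 were AT2G46300 at 0.177, AT4G21170 at 0.225 and AT1G62150 at 0.261, against a median of 0.711 over all 522. Of these, AT2G46300 passed as lower after staurosporine, with -0.79 ± 0.26 on the log2 scale (limma adjusted p 0.0442). Nearest to CHLM were AT1G76050 at 0.215, AT5G06790 at 0.225 and AT5G02710 at 0.269, against a median of 0.673. AT5G06790 and AT5G02710 passed as higher, with log2 changes of 0.98 ± 0.28 and 0.79 ± 0.18.

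Nearest to AT1G74470 were AT3G06570 at 0.169, PSBW at 0.186 and AT4G23110 at 0.198, against a median of 0.524. PSBW encodes a small subunit of photosystem II, and its log2 change of 0.28 ± 0.14 did not pass (limma adjusted p 0.195). Nearest to SIRB were AT3G08000 at 0.258, UBA1A at 0.291 and AT3G15490 at 0.331, against a median of 0.844. AT3G08000 and UBA1A, which encodes an RNA-binding protein, passed as higher, with log2 changes of 1.02 ± 0.26 and 0.86 ± 0.25, and AT3G15490 did not, at 0.80 ± 0.27 (limma adjusted p 0.0541).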

How the data were processed

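Total RNA of 12 samples was hybridised to single-channel arrays, 1 array a sample, and the titles gave the group and the replicate number (1 to 6) of each. The deposited table gives a linear intensity for each probe on each array, and the steps by which the authors made it were not stated in the labels or the table. Values run from 0 to 100, and 8 arrays reach that ceiling. Array medians lie between 0.252 and 0.486, and 10.3% to 15.2% of an array's probes are at 0. None of the 48 values of the 4 genes is at 0. The number of arrays limits the precision.

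Intensities were quantile normalized, values under the 1st percentile of an array's positive values were set to it, and log2 was taken. limma 3.58.1 in R 4.3.3 (lmFit, eBayes, 2-sided, no block) was tested on simulated data with arrays drawn independently. That test cannot show how the likeness of number pairs acts on the fit. limma was then fitted to 3439 probes. Of these, 692 carry 1 gene, 870 several and 1877 none in the platform annotation, which can be old, and 690 of the 692 matched the TAIR10.1 gene table. No genome positions are printed, since the arrays come with no named build.

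The genes, lists and tests were chosen with earlier results of these data known. Named are the 4 genes, listed genes with a probe of their own, and the 3 nearest profiles of each gene. The probes shared by 2 listed genes and the array scalings by 75th percentile and by mean were added after the data were seen. Same-numbered arrays deviated together across groups (correlations of 0.297 to 0.545 for numbers 1 to 6). Arrays of different numbers were not compared across groups, so these values cannot show that the numbers pair the arrays. The fit reported here has no block, and the replicate number as a block was an alternative. An outlying array was sought with Dixon's ratio at 0.625 in 24 groups of 6 and found in 2.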

Additional observations from a re-analysis of the deposited data

Results flagged for a closer look

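Probe 1872, which carries RCA and AT1G73110, stood out in both groups because 1 array was above 0 and the other 5 were at 0. Staurosporine replicate 3 had a normalized intensity of 0.0705 and water replicate 2 one of 0.0591. These were 2 of 24 groups of 6 arrays examined for an outlying array. With 5 of 6 values at 0, Dixon's ratio is 1 for any value above 0. The usual rate of about 1 in 20 marked by chance therefore does not apply to these groups.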

How the results depend on the processing

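With 3 averaged number pairs in a group, an exact 2-sided permutation test cannot go below p = 0.1, so it could not pass 0.05. Over 12 arrays, taken as separate samples, this test gave an unadjusted p of 0.0390 for HEMA3 (log2 change -0.67) and 0.0238 for CHLM (0.68). It gave 0.00649 for AT1G74470 (0.36) and 0.00216, the smallest it can give, for SIRB (1.20). Over the 6 pair means it gave 0.1 for HEMA3, AT1G74470 and SIRB and 0.2 for CHLM. By limma over 12 arrays, the unadjusted p was under 0.05 for all 4 genes and for 1206 of 3439 probes. The 788 called probes became 9 with number pairs averaged, 2 with that averaging and the number pair as a replicate block, 191 with unaveraged arrays and the pair as a random block, 614 to 751 without 1 array and 377 to 644 without 1 number pair of both groups. SIRB kept its log2 change of 1.20 but not its call with number pairs averaged, with averaging and the block (limma adjusted p 0.227) or with the random block (0.0925). With the replicate number as a block its adjusted p was 0.0272, and that block changed no call of the 4 genes. Without 1 array the log2 change ran from 1.04 to 1.36 for SIRB, -0.79 to -0.48 for HEMA3, 0.51 to 0.81 for CHLM and 0.31 to 0.41 for AT1G74470. Without 1 number pair it ran from 0.86 to 1.61, -0.96 to -0.10, 0.50 to 0.86 and 0.26 to 0.48 in the same order. HEMA3 passed with arrays centred on their medians (-0.91) and with array weights (-0.69). CHLM passed among probes above 0 on all arrays (0.68) and with array weights (0.77). AT1G74470 passed with cyclic loess (0.42), an offset in place of the floor (0.35) and array weights (0.40), and turned to -0.048 after median centring. The cause of these differences was not tested.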
